A study of Homo sapiens with 24 samples.

Results

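IMR5 is a human neuroblastoma cell line with amplified MYCN that the labels describe as sensitive to GSK-J4, a cell-permeable inhibitor of the H3K27 demethylases KDM6A and KDM6B. The comparison described here is between 3 IMR5 libraries from cultures given 1 µM GSK-J4 for 72 hours and 3 IMR5 libraries from untreated cultures, which are 6 of the 24 libraries in the study. It covers every gene listed for IMR5 in the authors' deposited table, 30271 genes, out of 39052 genes listed in any of the 3 tables used. LAN5, also MYCN amplified and labelled sensitive, and SK-N-FI, labelled sensitive without MYCN amplification, serve only to show where IMR5 differs. Both carry the same treatment, dose and time, with 3 treated and 3 untreated libraries each. Polyadenylated RNA was sequenced after capture from total RNA, with a strand-specific kit per the labels. The labels do not say whether the 3 libraries of a group came from separate cultures, so the p-values rest on the spread among these libraries alone, which may be technical.

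As background, KDM6A (UTX) and KDM6B (JMJD3) remove methyl groups from H3K27, a mark laid down by the Polycomb repressive complex PRC2 and linked to silent developmental genes. Neuroblastoma arises from the sympathetic nervous system and holds its identity through a set of adrenergic transcription factors, among them HAND2 and GATA3. Amplified MYCN drives growth, ribosome production and the cell cycle in these tumours.

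The values are those of a comparison made by the authors with DESeq2. For each gene their deposited table gives the mean normalized count over the 6 libraries, the log2 fold change with its standard error (SE, written after ±) and an adjusted p-value from a Wald test. Values per library were not used here, so group means with a standard deviation are not given and the depth per library is unknown. No source used here states the direction of the fold change. It is read as treated over untreated, since BBC3, which the study is known to find induced by GSK-J4, has a positive value. A gene is called at an adjusted p under 0.05. Where a level before and after treatment is printed, it is implied by the deposited mean and by the fold change after removal of the authors' shrinkage, for 3 libraries in each group; it carries no error of its own.

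The line's identity was checked first. Noradrenergic markers were well covered in the authors' deposited table, with a mean normalized count of 3894 for HAND2, 6514 for GATA3, 1784 for ISL1, 1892 for PHOX2A, 1452 for CHGA and 144 for DBH, while TH was not listed. Of the markers of other cell types, those of blood and endothelium were near 0 or not listed, and some of fibroblasts and muscle were not. PTPRC of immune cells had a mean of 0.552, VWF of endothelium 0.357 and GFAP of glia 0.332, and SOX10, S100B, COL1A2, CD3E and PECAM1 were not listed. Of 2 immune or endothelial markers tested, 0 were called by the authors' DESeq2 test, nor did either have an unadjusted p under 0.05 (CD68 0.13 ± 0.36, KDR 0.30 ± 0.326). Of 5 tested Schwann and glial markers 1 was called higher. Of 8 tested fibroblast and muscle markers 2 were called higher and 3 lower, and their means reached 1104 for COL1A1 (higher), 130.3 for ACTA2 (higher), 1798 for PDGFRA (lower), 276 for PDGFRB (lower) and 222 for COL3A1 (not called). DCN, at 2.02, LUM, at 31 and called lower, and TAGLN, at 17.4, were weaker. The part of such cells in the results was not tested.

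The compound changed a large part of the IMR5 transcriptome in both directions. Of 22594 genes tested (those with an adjusted p, with a mean of at least 1.37), 9969 were called, or 44.1%. The called genes split into 5097 that rose (22.6%) and 4872 that fell (21.6%). The remaining 7677 listed genes were not tested. Restricting to the 10864 tested genes whose mean reached 100, 34.0% rose and 35.7% fell, and these 2 shares are the background for gene lists of mostly abundant members. Lists with many members below that mean are set beside the shares of all tested genes, 22.6% and 21.6%. At unadjusted p under 0.05 there were 11068 genes. The median change of all tested genes was 0.02 on the log2 scale.

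Large changes were mostly rises. A log2 change of at least 2 was found in 404 genes that rose and 99 that fell, a change of at least 3 in 117 and 8, and a change of at least 4 in 38 and 0. Among genes whose mean reached 100, 54 rose by at least 3 and 4 fell by as much. That mean pools treated and untreated libraries, so a gene near silent before treatment can reach it through its treated level alone. FUT1 did so, with a mean of 178 and an implied untreated level of 1.88. The minimum therefore cannot show whether the excess of strong rises lay outside weak genes. Abundant genes leaned the other way. In the authors' deposited table, genes that fell held 44.3% of all mean normalized counts and genes that rose held 30.2%.

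**Figure D1:**
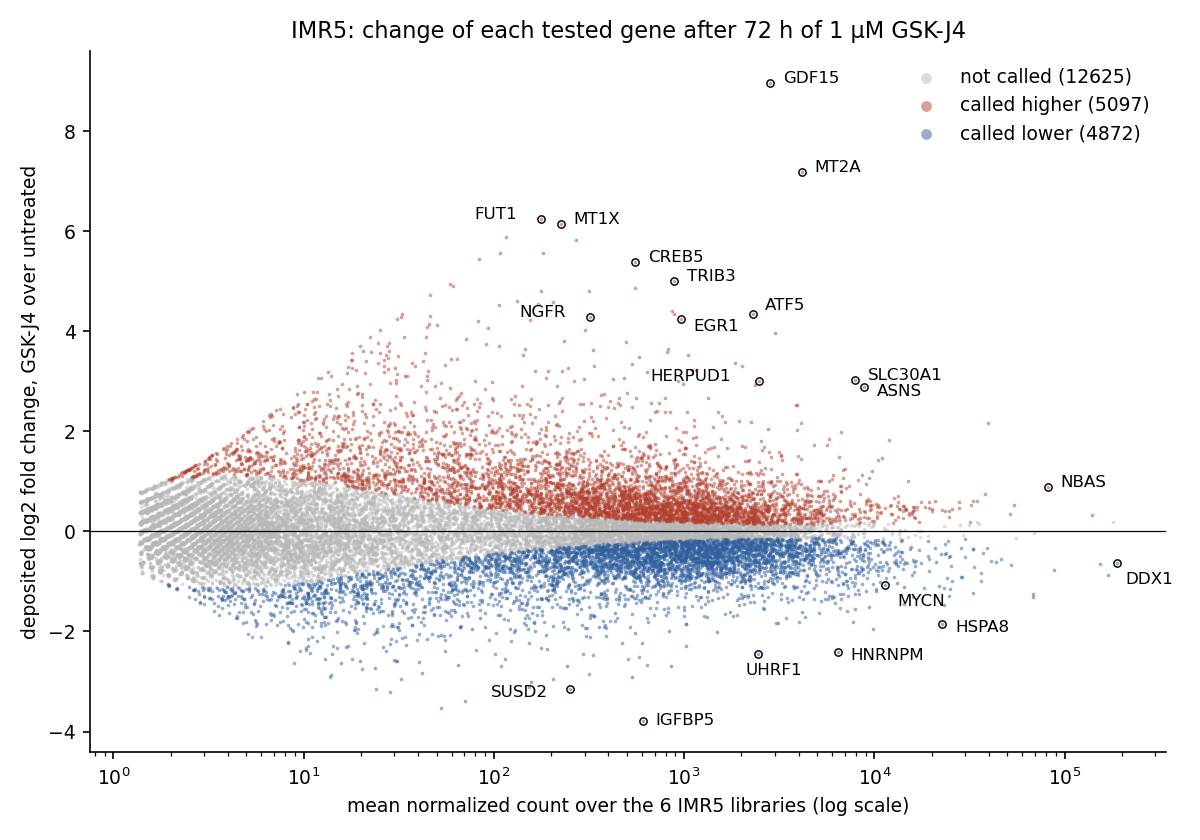
Each point is 1 of the 22594 tested genes of IMR5, with its mean normalized count over the 6 libraries on a log axis and its deposited log2 fold change, GSK-J4 over untreated; colours mark the 5097 genes called higher, the 4872 called lower and the rest. GDF15, MT2A, FUT1 and MT1X stand highest and IGFBP5 lowest among the labelled genes, and no called gene lies below -4.

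The gene with the largest rise was GDF15, a secreted hormone of cell stress that acts on the brainstem to reduce appetite (hg38 chr19:18374731-18389176). Its implied level went from 7.05 to 5674 normalized counts, a deposited log2 change of 8.97 ± 0.251. Near-silent genes of several kinds followed. FUT1, a fucosyltransferase that builds the H blood group antigen, went from an implied 1.88 to 353 (6.24 ± 0.372), and FGF19, a growth factor of bile acid control, from 1.78 to 215 (5.57 ± 0.388). NECTIN4, a cell adhesion molecule, rose by 5.83 ± 0.283, and CREB5, a CRE-binding transcription factor, by 5.39 ± 0.322, from an implied 15.4 to 1093. Genes best known from blood cells were among them: LAPTM5, a lysosomal membrane protein, at 5.56 ± 0.313, and INPP5D, the SHIP1 phosphatase of inositol lipids, at 4.86 ± 0.176. The leukocyte gene PTPRC had a mean of 0.552 in the same authors' deposited table. The other members of the 15 strongest rises were MT2A, MT1X, TRIB3 and NIBAN1, described with their pathways below, and KLHDC7B (5.89 ± 0.402), SAMD4A (4.81 ± 0.275), RAPGEF3 (4.61 ± 0.304) and CDH8 (4.54 ± 0.257).

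The strongest falls were smaller in fold and included genes of signalling, chromatin and RNA processing. IGFBP5, a secreted binding protein of insulin-like growth factors (hg38 chr2:216672105-216695525), went from an implied 1141 to 77.7 normalized counts, a deposited log2 change of -3.78 ± 0.149. Cell surface genes among them were SUSD2 (-3.15 ± 0.165), LRRC4 (-3.10 ± 0.217), SLITRK6 (-3.01 ± 0.197), LRRN3 (-2.47 ± 0.133), the vasopressin receptor AVPR1A (-2.95 ± 0.174) and the cation channel TRPM3 (-2.68 ± 0.214). Nuclear genes among the 15 were DACH1, a transcription factor of the adrenergic set, ZC3H4, which restricts transcription of non-coding RNA and went from an implied 1111 to 169, UHRF1, which guides maintenance DNA methylation (4137 to 745), and HNRNPM, an abundant splicing factor (10906 to 2021). The authors' deposited table gives them -2.69 ± 0.152, -2.66 ± 0.137, -2.45 ± 0.102 and -2.41 ± 0.083. The steroid sulfatase STS, the proline synthesis enzyme PYCR3, the GPI anchor enzyme PIGW and the axonemal gene CFAP44 completed the set at -2.84, -2.55, -2.52 and -2.46.

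Gene lists written by function were then counted, 80 in all with 1742 distinct tested genes. Of these, 1271 were called, 568 higher and 703 lower. No set test was run, and the shares of called members are described beside the background shares.

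**Figure D2:**
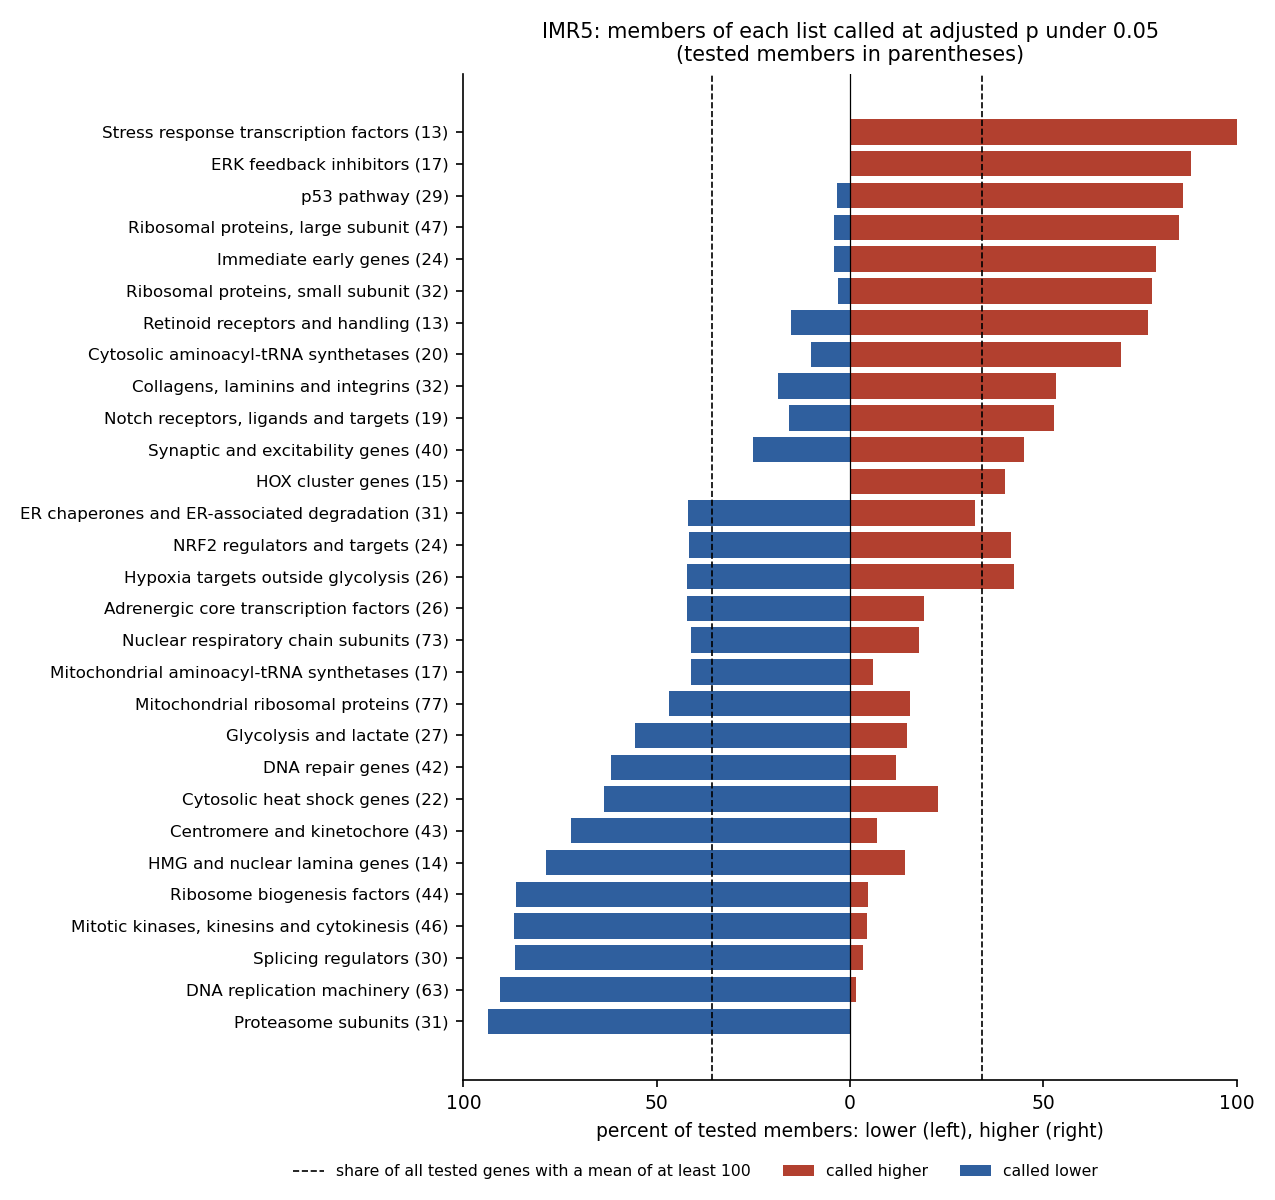
Bars show the percent of tested members of each list that the authors' deposited table calls higher (right) or lower (left) in IMR5. Dashed lines mark the shares among all tested genes whose mean reached 100 (34.0% higher, 35.7% lower). For HOX, Notch, retinoid and immediate early genes the text uses the shares of all tested genes (22.6% and 21.6%), which are not drawn. Stress transcription factors reach 100% higher (13 of 13), and 29 of 31 proteasome genes and 57 of 63 replication genes are lower.

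The drug's targets and the chromatin machinery around them changed in both directions. Both H3K27 demethylases rose, KDM6B by 1.17 ± 0.09 and KDM6A by 0.41 ± 0.0975. Of 12 tested PRC2 genes, 3 rose and 6 fell in the authors' deposited table (25% and 50%). The background shares are 34.0% and 35.7%. The catalytic subunits went opposite ways: EZH2, the form of dividing cells, fell by 0.24 ± 0.0645, and EZH1, the form of resting cells, rose by 1.29 ± 0.0813. The accessory subunit JARID2 was at -0.65. In PRC1, the second Polycomb complex, 7 of 18 tested members rose and 6 fell (38.9% and 33.3%), near the background shares. Of 19 other Jumonji demethylases, relatives of the drug's targets, 4 rose and 9 fell (21.1% and 47.4%). Among them were KDM7A at 1.51 ± 0.116, JMJD1C at 0.74 ± 0.0852 and KDM3A at -0.65 ± 0.0804.

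Silent developmental loci are the textbook carriers of H3K27 methylation, and many of them had too few reads to be tested. Of 39 HOX genes listed, 20 were in the authors' deposited table and 15 had enough reads to be tested. Of these 15, 6 rose (40%, beside 22.6% of all tested genes), 0 fell and 9 were not called. HOXC10 (1.53) was the highest of them. Other developmental factors gave 18 higher, 9 lower and 21 not called among 48 tested, or 37.5% and 18.8% beside 22.6% and 21.6% of all tested genes. Of the 18 that rose, 10 had a mean under 100. EMX1 (2.15), DLX2 (2.10) and MSX2 (1.38) were among those that rose, and LHX4 (-1.28) and TBX3 (-1.27) among those that fell. DNA methylation genes leaned lower, with 7 of 11 down. Besides UHRF1 these included the methyl-DNA reader MBD3 (-1.10 ± 0.108) and the maintenance methyltransferase DNMT1 (-0.47 ± 0.0686).

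Transcription factors of the integrated stress response all rose. As background, this pathway starts at kinases that phosphorylate eIF2-alpha, slows general translation, favours translation of ATF4 and so switches on genes of amino acid supply and, under prolonged stress, of cell death. The 13 tested factors, 2 of them with a mean under 100, were all called higher in the authors' deposited table, with a median log2 change of 1.70. The mRNA of ATF4 itself, whose protein is controlled mainly at translation, rose least among the best known of them (0.71 ± 0.103). Its partners and targets rose more: ATF5 went from an implied 178 to 4400 (4.34 ± 0.235), DDIT3 (CHOP), which promotes cell death, from 78.2 to 992 (3.35 ± 0.275), ATF3 from 217 to 2104 (3.22 ± 0.126) and CEBPB from 95.2 to 667 (2.75 ± 0.137). Factors of the unfolded protein response rose as well, XBP1 by 1.70 ± 0.0901 and ATF6 by 1.01.

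Brakes and outputs of the same pathway rose in 11 of 13 tested cases, with a median of 1.70. TRIB3, a pseudokinase that restrains the response, went from an implied 48.7 to 1730 (5.0 ± 0.163), and PPP1R15A (GADD34), which recruits the phosphatase that reverses eIF2-alpha phosphorylation, rose by 2.66 ± 0.12. NIBAN1 rose by 4.59 ± 0.395 and the mTORC1 inhibitors DDIT4 and SESN2 by 2.56 and 2.18. The exception was BCL2L11 (BIM), a cell death gene, at -0.78 ± 0.0905. The upstream kinases moved little in the authors' deposited table: 3 of 4 rose, PERK (EIF2AK3) most at 0.49.

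Secreted stress hormones rose in 5 of 6 cases. Next to GDF15 these were ADM2, a vasodilator peptide (3.01 ± 0.17, from an implied 55.3 to 475), STC2, a glycoprotein that inhibits the protease PAPPA (2.76 ± 0.136), the angiogenic factor VEGFA (2.09 ± 0.0983) and FGF21, a metabolic hormone at a low mean of 32.5 (4.29 ± 0.444). STC1, the paralog of STC2, went the other way in the authors' deposited table, from an implied 523 to 116 (-2.12 ± 0.147).

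Genes of amino acid supply were selective rather than uniform. The asparagine, proline and arginine list had 10 of 15 members higher, led by ASNS, asparagine synthetase, from an implied 1955 to 15727 (2.88 ± 0.197), and ARG2, mitochondrial arginase (2.66 ± 0.141). Against these, PYCR3 fell by 2.55 ± 0.235 although its paralog PYCR1 (0.63) rose. In serine and one-carbon metabolism 8 of 17 rose and 8 fell, 47.1% each beside background shares of 34.0% and 35.7%. Those that rose included the serine synthesis enzymes PSAT1 (1.15) and PHGDH (0.99) and the mitochondrial folate enzymes ALDH1L2 (1.67 ± 0.105) and MTHFD2 (1.21 ± 0.0896), with CTH of cysteine synthesis at 1.28. Those that fell included the glycine cleavage gene GLDC (-1.70 ± 0.0729) and genes tied to thymidylate synthesis, TYMS (-0.86) and SHMT1 (-0.80). All values are those of the authors' deposited table.

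Amino acid transporters gave 11 higher and 5 lower of 21 tested, or 52.4% and 23.8% beside background shares of 34.0% and 35.7%. The cystine carrier SLC7A11 went from an implied 162 to 1942 (3.53 ± 0.123) and its partner chain SLC3A2 rose by 1.81 ± 0.112. The leucine carriers SLC43A1 (2.64 ± 0.22) and SLC7A5 (1.48 ± 0.103) rose, while the glutamine carrier SLC38A5 fell (-2.03 ± 0.108). The enzymes that charge tRNAs differed by compartment mainly in the share that rose in the authors' deposited table. Of 20 cytosolic synthetases 14 rose and 2 fell (70% and 10%), with a median of 0.44. AARS1, SARS1, CARS1 and WARS1 rose by 1.5, 1.49, 1.29 and 1.16, and RARS1 and FARSA fell to -0.63 and -0.36. Of 17 mitochondrial synthetases 1 rose (MARS2, 0.59) and 7 fell (5.88% and 41.2%), with a median of -0.21. Beside background shares of 34.0% and 35.7%, the mitochondrial share that fell was near background and the share that rose below it.

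Promoters were searched for short motifs because members of these lists moved together. A promoter here is the RefSeq stretch from 250 bases before to 50 after a gene's start on GRCh38.p14, and 11587 of 14365 tested protein-coding genes (80.7%) had one. Both strands were read, and a match is a description of the letters, not a site shown to be bound. The composite site of ATF4 with a C/EBP partner was searched as TGATGNAA and occurred in 3.67% of all 27305 RefSeq promoters. The promoters of ASNS and AARS1 are shown for the position of this match, which is in capitals. The ASNS stretch is chr7:97872409-97872488 on the minus strand, with the match at -68 bases from the start, and the AARS1 stretch is chr16:70289507-70289706 on the minus strand, with a match on the other strand at -187.
ASNS: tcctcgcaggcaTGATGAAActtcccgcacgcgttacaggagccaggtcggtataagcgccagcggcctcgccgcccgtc
AARS1: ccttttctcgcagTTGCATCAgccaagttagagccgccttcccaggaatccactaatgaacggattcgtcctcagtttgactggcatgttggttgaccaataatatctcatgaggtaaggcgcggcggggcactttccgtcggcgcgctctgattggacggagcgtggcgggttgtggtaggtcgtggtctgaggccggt

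This motif was more frequent among genes that rose strongly. It was in 4.19% (Wilson 95% interval 3.16 to 5.53) of promoters of genes that rose by at least 1. Over all 11587 promoters the share was 1.75% (1.53 to 2.01). Genes that fell by at least 1 had it in 1.56% (0.824 to 2.94) and all genes that fell in 1.16% (0.852 to 1.59). In genes that rose by under 1 the share was 1.47% (1.07 to 2.03), and in all that rose 2.33% (1.88 to 2.88). The intervals cover counting error only, and genes are not independent replicates. Among cytosolic tRNA synthetases 6 of 16 promoters held it (37.5%), those of AARS1, CARS1, IARS1, MARS1, NARS1 and TARS1, and in the authors' deposited table each of these 6 genes rose. Of the 10 without it, 5 rose, 2 fell and 3 were not called. Among amino acid transporters 4 of 18 promoters held it (22.2%), those of SLC3A2, SLC7A1, SLC1A3 and SLC38A1, and the first 3 of these genes rose.

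Genes of metal handling held some of the largest changes in the line. Metallothioneins are small cysteine-rich proteins that bind zinc and copper, and their genes and the zinc exporter gene SLC30A1 are textbook targets of the zinc-sensing factor MTF1. In the authors' deposited table MT2A went from an implied 42.5 to 8297 normalized counts (7.19 ± 0.224), MT1X from 3.36 to 447 (6.14 ± 0.329) and SLC30A1 from 1623 to 14207 (3.03 ± 0.172). Metallothionein genes are near-identical copies, so the split of reads among them is uncertain; MT1E and MT1G had means of 0.461 and 0.561 and were not tested. MTF1 mRNA was at 0.17 ± 0.108 and was not called. Of 11 tested zinc and manganese importers 3 rose and 3 fell, 27.3% each beside background shares of 34.0% and 35.7%. The largest changes were those of SLC39A8 (0.76) and SLC39A14 (0.71).

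The metal response element was searched as TGCACNC and TGCGCNC, letters short enough to occur in 29.3% of all RefSeq promoters. It was no more frequent among genes that rose by at least 1 (38.9%, interval 36 to 41.7) than among all 11587 promoters (38.6%). The promoters of MT2A and MT1X are shown for how densely they hold it: 6 matches within 170 bases in MT2A (chr16:56608414-56608583, plus strand) and 4 within 160 bases in MT1X (chr16:56682310-56682469, plus strand), with matches in capitals.
MT2A: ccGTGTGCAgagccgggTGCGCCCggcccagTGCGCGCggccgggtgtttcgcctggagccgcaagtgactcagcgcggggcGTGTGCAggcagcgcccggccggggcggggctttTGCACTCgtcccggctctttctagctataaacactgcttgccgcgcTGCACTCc
MT1X: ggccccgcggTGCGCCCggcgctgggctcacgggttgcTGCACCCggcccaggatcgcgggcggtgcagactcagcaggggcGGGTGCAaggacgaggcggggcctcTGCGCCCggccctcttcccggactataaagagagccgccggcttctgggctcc

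Iron genes leaned higher, with 10 of 16 up and 1 down (62.5% and 6.25%, beside background shares of 34.0% and 35.7%). The transferrin receptor TFRC rose by 1.01 ± 0.0648, the ferrireductase STEAP3 by 1.44 ± 0.177, the iron exporter SLC40A1 by 0.69 ± 0.164 and the ferritin light chain FTL by 0.58 ± 0.0633. Ferritin heavy chain FTH1 was at 1.13 with a wide SE of 0.413 and an adjusted p of 0.0159 from the authors' DESeq2 test. IREB2, which encodes an iron-sensing RNA-binding protein, was the member that fell (-0.47 ± 0.0607). Targets of NRF2, the factor of oxidative stress, were divided in the authors' deposited table at 10 higher and 10 lower of 24. Each share was 41.7%, beside the background shares of 34.0% and 35.7%. The aldo-keto reductase AKR1C3 rose by 2.64 ± 0.189, whereas PRDX1, a peroxide-reducing enzyme, fell by 1.36 ± 0.0572, HMOX1, heme oxygenase, by 0.93 ± 0.199 and GCLM of glutathione synthesis by 0.86 ± 0.0752.

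Machines that make, fold and destroy proteins moved in different directions. Cytosolic ribosomal protein genes rose by small amounts: 40 of 47 large-subunit genes rose and 2 fell (median 0.40), and 25 of 32 small-subunit genes rose and 1 fell (median 0.37). RPL13 was highest at 0.80 ± 0.0689 and RPS18 led the small subunit at 0.59 ± 0.0871. The members that fell were RPL17 (-0.79 ± 0.139), RPL26 (-0.49 ± 0.123) and RPS23 (-0.23 ± 0.0683). Many ribosomal protein genes have processed pseudogenes, which can share their reads. Ribosome assembly went the other way in the authors' deposited table, as 38 of 44 biogenesis factors fell, with a median of -0.46.

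Named members of ribosome biogenesis included UTP20, a scaffold of small-subunit assembly, from an implied 6272 to 1770 (-1.81 ± 0.0746), the nucleolar protein NCL (-1.15 ± 0.0528), the assembly factor MRTO4 (-1.12 ± 0.0869) and UBTF, which activates transcription of ribosomal RNA genes (-1.11 ± 0.0694). POLR1D, a subunit of RNA polymerases I and III, rose by 0.81 ± 0.0937 and TAF1D by 0.71 ± 0.25. Mitochondrial ribosomal proteins did not share the rise of the cytosolic ones: 12 of 77 rose and 36 fell, with a median of -0.27 in the authors' deposited table. Translation factors split 14 higher to 13 lower of 33 tested (42.4% and 39.4%, beside background shares of 34.0% and 35.7%). EIF1, which guards start codon choice, rose by 1.83 ± 0.0976, and EIF5, which acts against it at that step, fell by 1.29 ± 0.0628. EIF5A and EIF1AX stood at -1.23 and -1.13.

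Proteasome genes fell as a block. In the authors' deposited table, of 31 subunits, 29 fell and 0 rose, with changes from -1.19 to -0.07 and a median of -0.60. The scaffold subunits PSMD1 (-1.19 ± 0.0608) and PSMD2 (-1.0 ± 0.0627), the lid subunit PSMD11 (-1.0 ± 0.0643) and the core subunit PSMA2 (-1.04 ± 0.175) fell most. The members not called were PSMA6 (-0.07 ± 0.107) and PSMD6 (-0.14 ± 0.0833), both also below 0.

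Cytosolic heat shock genes also leaned lower, with 14 of 22 down, 5 up and a median of -0.60. HSPA8, the constitutive HSP70, went from an implied 35763 to 9849 normalized counts (-1.85 ± 0.0661). The co-chaperone DNAJA1 (-1.51 ± 0.0681), HSP90AA1 (-1.32 ± 0.062) and HSPH1 (-1.26 ± 0.0554) fell. The inducible and near-identical pair HSPA1A and HSPA1B stood at -0.58 and -0.55. HSPA4L (1.01), HSF1 (0.71), HSF2 (0.66), HSPB1 (0.62) and DNAJB4 (0.48) were the members that rose, and HSF1 and HSF2 encode factors that drive this list.

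The endoplasmic reticulum list was split, 10 higher and 13 lower of 31, without a common direction. Its shares of 32.3% and 41.9% were near the background shares of 34.0% and 35.7%. Among genes of disposal of misfolded proteins, HERPUD1 went from an implied 487 to 4465 (3.01 ± 0.231) and EDEM1 rose by 2.53 ± 0.207, though DERL1 (-0.27) and DERL2 (-0.40) of the same process fell. DNAJB9, a co-chaperone, was at 1.51 ± 0.145 and ERO1B, an oxidase of disulfide formation, at 1.22. Among chaperones of folding, HSPA5 (BiP), the major chaperone of the compartment, was at 0.14 ± 0.233 and not called in the authors' deposited table, CALR fell by 0.72 ± 0.0603 and PDIA3 by 0.51 ± 0.0695. Members of this list were grouped by function after their values were seen.

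Splicing regulators fell in 26 of 30 cases, with a median of -0.84. Next to HNRNPM these were the SR proteins SRSF2 (-1.63 ± 0.0608), SRSF1 (-1.60 ± 0.0562) and SRSF3 (-1.56 ± 0.0629), and the exception was SRSF4 at 0.30 ± 0.0615. SR protein genes control their own mRNA through exons that lead to decay, and gene-level values in the authors' deposited table do not separate such forms. Autophagy and lysosome genes were mixed, 16 higher and 9 lower of 35 (45.7% and 25.7%, beside background shares of 34.0% and 35.7%). OPTN, an autophagy receptor, went from an implied 121 to 1514 (3.58 ± 0.132).

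**Figure D3:**
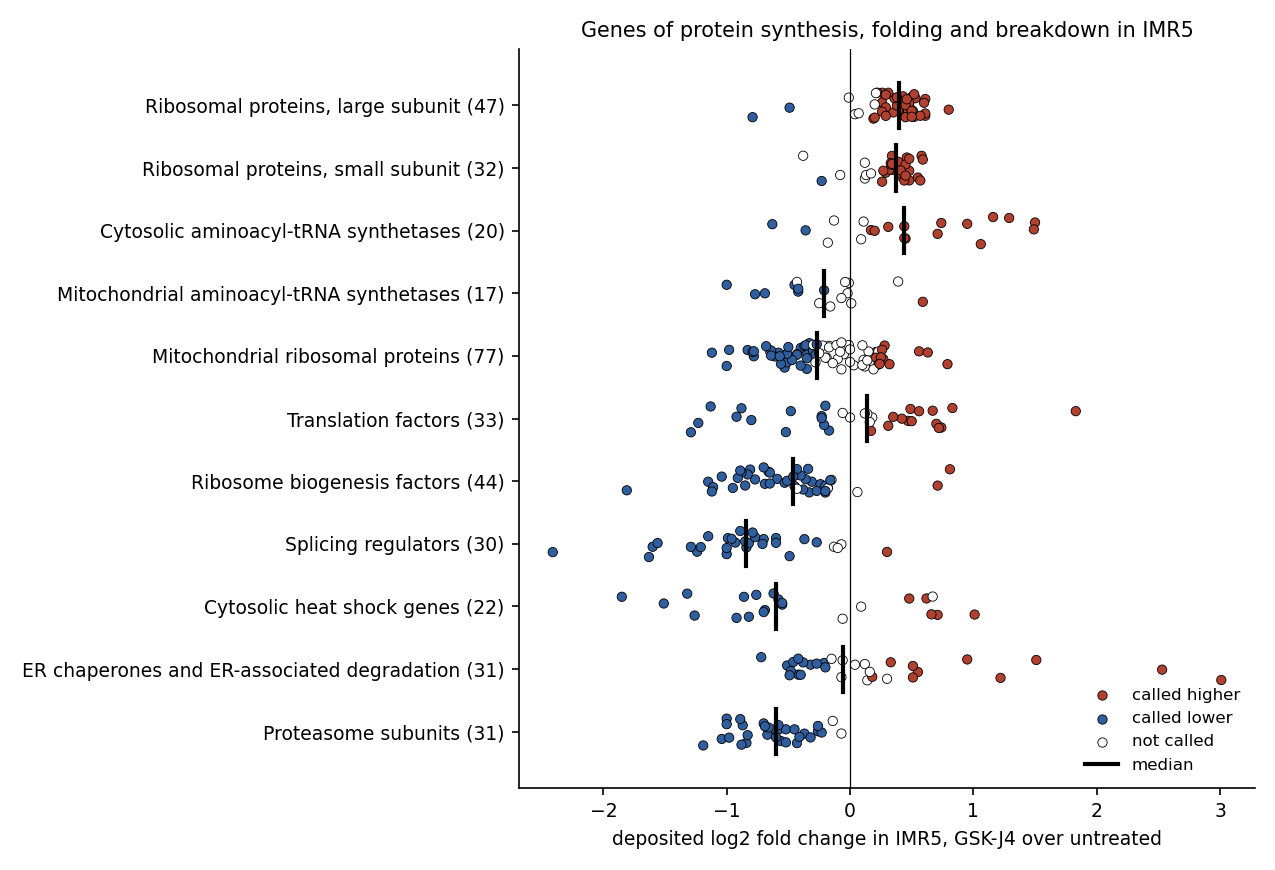
Each point is the deposited log2 fold change in IMR5 of 1 tested gene of protein synthesis, folding or breakdown, coloured by its call, with a black bar at each list's median; tested members are in parentheses. Ribosomal proteins centre on 0.40 and 0.37 and cytosolic tRNA synthetases on 0.44, while splicing regulators (-0.84), proteasome subunits (-0.60) and heat shock genes (-0.60) lie below 0.

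Proliferation genes fell broadly and by moderate amounts. Of 63 replication genes 57 fell and 1 rose, with a median of -0.66 in the authors' deposited table. The replicative helicase subunits MCM5 and MCM6 were at -1.68 ± 0.0896 and -1.35 ± 0.0744, and the sliding clamp PCNA went from an implied 6040 to 2354 (-1.35 ± 0.098). Thymidine kinase TK1 (-1.67 ± 0.132), the primase-bound polymerase POLA1 (-1.62 ± 0.0864) and GINS2 (-1.55 ± 0.135) fell as well. POLD4, at a low mean of 11, was the member that rose (1.07 ± 0.439). DNA repair genes followed with 26 of 42 down and 5 up (median -0.50), led by the uracil glycosylase UNG (-1.48 ± 0.0756). In bulk RNA, fewer cycling cells and less of these mRNAs per cell cannot be told apart.

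Mitotic genes gave 40 lower and 2 higher of 46, with a median of -0.59. The proliferation marker MKI67 went from an implied 11998 to 3403 (-1.81 ± 0.0677), and separase ESPL1 (-1.66 ± 0.105), the kinesin KIF11 (-1.13 ± 0.0774) and the kinase PLK1 (-1.0 ± 0.0822) fell. The loss was uneven. NEK2 (0.57 ± 0.0878) and TTK (0.27 ± 0.0794), both mitotic kinases, rose, and TOP2A, topoisomerase of dividing cells, was at -0.10 ± 0.0583 with an adjusted p of 0.179 from the authors' DESeq2 test. Centromere and kinetochore genes fell in 31 of 43 cases and rose in 3 (SKA1, MAD1L1 and CENPQ).

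Regulators of the cycle went both ways. Cyclins and their kinases fell in 15 of 20 cases, with CCNE1 lowest at -1.82 ± 0.181 and CCNH as the 1 that rose (0.54). The inhibitor CDKN1A (p21) went up by 2.16 ± 0.0975, while other inhibitors fell, CDKN2C (p18) to -1.43 ± 0.17 and CDKN1B (p27) to -0.93. Activating E2F genes were lower in the authors' deposited table, E2F2 at -1.24 ± 0.133 and E2F1 at -0.85.

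Chromatin packaging genes changed with them. HMG and lamina genes were lower in 11 of 14 cases (median -0.80): HMGB3 fell by 1.74 ± 0.0694 and lamin B1 (LMNB1) by 1.35 ± 0.0722, whereas lamin A (LMNA), the lamin of differentiated cells, went from an implied 267 to 1427 (2.39 ± 0.102). The variants H2AZ1 and H2AZ2 fell to -1.02 and -1.09. Of 29 tested replication-dependent histone genes in the authors' deposited table, 8 were higher (27.6%, beside 22.6% of all tested genes), 3 lower and 18 not called, and 5 of the 8 had a mean under 100. H1-2 was at 2.61 ± 0.21. Transcripts of these histone genes mostly lack a poly(A) tail, so poly(A) capture sees only a part of them.

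Promoter letters of the replication and mitotic lists differed from the rest. The E2F site was searched as TTTCGCGC, TTTCCCGC, TTTGGCGC and TTTGCCGC (3.33% of all RefSeq promoters), the CHR element of mitotic genes as TTTGAA and TTCGAA (16.6%) and the CCAAT box as CCAAT (35.7%). Stretches of MCM6 (chr2:135876444-135876603, minus strand) and PCNA (chr20:5126623-5126702, minus strand) are shown for E2F matches, which in MCM6 form 2 clusters of 2 overlapping matches read on opposite strands. Those of PLK1 (chr16:23678799-23678888, plus strand) and KIF11 (chr10:92593060-92593129, plus strand) are shown for a CCAAT box followed by a CHR element, at -73 and -29 and at -53 and -28 bases from the start. Capitals mark the matches.
MCM6: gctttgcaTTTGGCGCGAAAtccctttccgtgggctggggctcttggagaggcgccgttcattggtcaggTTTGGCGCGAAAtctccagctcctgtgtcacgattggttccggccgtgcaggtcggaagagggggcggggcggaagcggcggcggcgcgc
PCNA: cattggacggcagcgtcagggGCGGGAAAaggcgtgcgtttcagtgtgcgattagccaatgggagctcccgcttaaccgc
PLK1: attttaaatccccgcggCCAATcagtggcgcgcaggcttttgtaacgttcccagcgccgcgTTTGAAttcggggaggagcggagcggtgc
KIF11: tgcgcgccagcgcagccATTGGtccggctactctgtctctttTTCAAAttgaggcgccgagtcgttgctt

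An E2F match was in 21 of 55 replication promoters (38.2%) against 5.04% of all 11587. Of the 21 genes 18 fell and 3 were not called, and of the 34 without a match 31 fell. Most of this list fell, so the split cannot inform on the site, whose part was not tested. Among mitotic genes 29 of 39 promoters held a CHR element (74.4%) and 30 of 39 a CCAAT box (76.9%), against 11.7% and 36.3% of all. Over the whole authors' deposited table, E2F matches were in 6.92% (Wilson 95% interval 6.11 to 7.83) of promoters of genes that fell and 3.34% (2.8 to 3.98) of those that rose. CHR elements were in 16.5% (13.7 to 19.7) of promoters of genes that fell by at least 1. Among those that rose by at least 1 the share was 11% (9.27 to 12.9). With all called genes the CHR shares were closer, 12.9% (11.8 to 14) of those that fell and 10.1% (9.12 to 11.1) of those that rose. Base composition was near the same, with a median GC content between 64% and 66.3% over the classes.

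**Figure D4:**
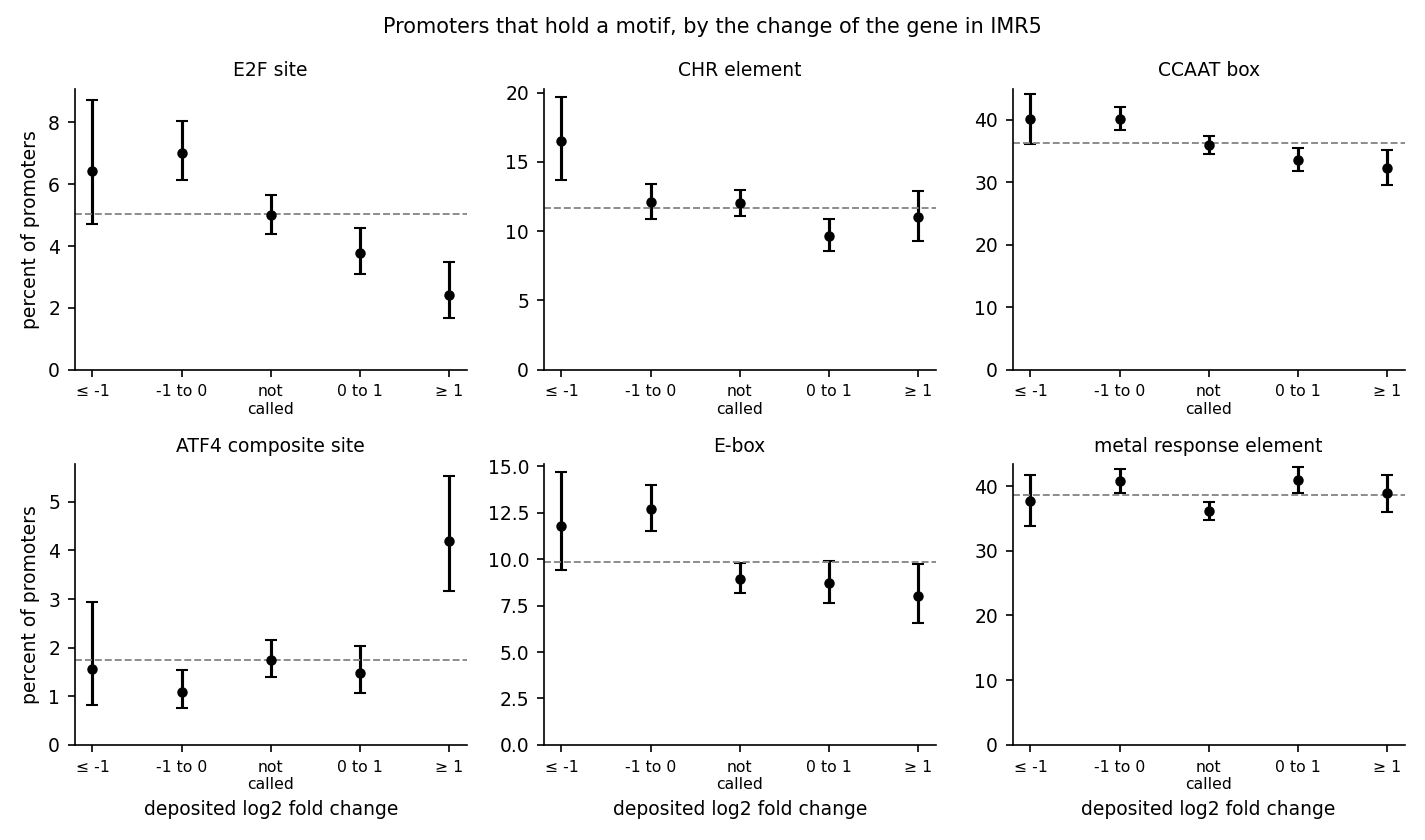
Each panel gives, for 1 motif, the percent of promoters that hold it among genes grouped by their deposited log2 fold change in IMR5 (at most -1, -1 to 0, not called, 0 to 1, at least 1), with Wilson 95% intervals; the dashed line is the share over all 11587 promoters. E2F shares run from 6.42% and 7.02% in genes that fell to 2.41% in genes that rose by at least 1, and the ATF4 composite site reaches 4.19% in that last class.

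MYCN itself fell but stayed abundant. Its implied level went from 15460 to 7335 normalized counts, a deposited log2 change of -1.07 ± 0.0706 (hg38 chr2:15940564-15947007). Its neighbours on the same band did not move together. DDX1 (chr2:15591178-15631111) fell by 0.64 ± 0.0507 and NBAS (chr2:15166909-15561330) rose by 0.89 ± 0.0654 in the authors' deposited table. These genes took large shares of all normalized counts, 0.972% for DDX1 and 0.42% for NBAS, shares that gene length also sets. Farther along, CYRIA rose by 1.90 ± 0.165 and GEN1, a resolvase of DNA junctions, fell by 1.11 ± 0.107. Of 11 tested genes of this neighbourhood 2 rose, 4 fell and 5 were not called.

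Antagonists of MYC within the MAX network were divided. MXD1 (1.55 ± 0.145) and MXI1 (0.96 ± 0.0995) rose, MXD3 (-0.53 ± 0.172), MXD4 (-0.40 ± 0.113) and MGA (-0.63 ± 0.0732) fell, and MNT was at -0.06 ± 0.093 and not called. The paralog MYCL rose by 1.09 ± 0.119. Over the network 6 of 15 genes rose and 5 fell (40% and 33.3%, near the background shares of 34.0% and 35.7%). The E-box CACGTG, the textbook site of MYC proteins, was in 12.6% (11.5 to 13.7) of promoters of genes that fell and 8.49% (7.62 to 9.45) of those that rose, against 9.86% of all and 7.43% of RefSeq promoters. Ribosome biogenesis promoters held it in 13 of 37 cases (35.1%); 12 of these 13 genes fell in the authors' deposited table, as did 20 of the 24 without it. The UTP20 promoter, chr12:101280045-101280104 on the plus strand, is shown for its E-box in capitals, which begins at -10 bases from the gene's start.
UTP20: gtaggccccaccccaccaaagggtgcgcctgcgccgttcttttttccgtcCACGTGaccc

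Genes of the p53 pathway rose in 25 of 29 cases, with a median of 1.15. Next to CDKN1A these were ZMAT3, an RNA-binding growth suppressor (2.52 ± 0.0961), the kinase PLK3 (2.49 ± 0.136), the antiproliferative gene BTG2 (2.30 ± 0.0841) and the stress gene GADD45A (2.19 ± 0.0705). TP53I3 was the member that fell (-0.63 ± 0.137). Part of this list, such as SESN2, is also a target of the stress response.

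Genes that carry out cell death were mixed. Among 11 BH3-only genes 4 rose and 3 fell in the authors' deposited table. These were 36.4% and 27.3%, near the background shares of 34.0% and 35.7%. BBC3 (PUMA) went from an implied 57.4 to 619 (3.31 ± 0.179), HRK rose by 1.35 ± 0.161 and PMAIP1 (NOXA) by 0.83 ± 0.0665, while BNIP3, BCL2L11 and BID fell to -0.92, -0.78 and -0.77. The survival genes MCL1 (-0.61 ± 0.0537) and BCL2 (-0.50) fell and BCL2L2 (0.57) rose. The pore former BAK1 was at 0.61. Death receptors FAS (1.49 ± 0.141) and TNFRSF10B (1.43) rose, and CASP2 fell to -1.03.

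Genes tied to ERK signalling rose broadly. Immediate early genes, which follow receptor signals within minutes, rose in 19 of 24 cases with a median of 1.74 after 72 hours. That share was 79.2%, beside 22.6% of all tested genes, and 9 of the 19 had a mean under 100. EGR1 led (4.25 ± 0.332), followed by the synaptic gene ARC (3.65 ± 0.228). Genes listed for feedback on the ERK pathway, not all of them inhibitors, rose in 15 of 17 cases and fell in 0, with a median of 1.58. The phosphatases DUSP8 (3.80 ± 0.212) and DUSP6 (3.04 ± 0.157), the ETS factor ETV5 (3.37 ± 0.2) and the inhibitor SPRY4 (3.21 ± 0.185) had the largest changes in the authors' deposited table. The receptor EPHA2 went up by 3.64 ± 0.124.

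Central metabolism was lower in glycolysis and mixed elsewhere. Of 27 glycolysis and lactate genes 15 fell and 4 rose, with a median of -0.44. Lactate dehydrogenase LDHA went from an implied 34208 to 12113 (-1.48 ± 0.0949), and the glucose carrier SLC2A1 (-1.40 ± 0.0854), TPI1 (-1.25 ± 0.0769) and ENO1 (-1.13 ± 0.0649) fell. The isoforms PFKFB2 (1.35 ± 0.191) and ENO2, the neuronal enolase (1.15 ± 0.0899), rose. Other hypoxia targets gave 11 higher and 11 lower of 26 in the authors' deposited table, 42.3% each beside background shares of 34.0% and 35.7%.

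Mitochondrial energy genes fell more often than they rose. Nuclear respiratory chain subunits gave 30 lower and 13 higher of 73 (41.1% and 17.8%). The background shares are 35.7% and 34.0%, so the share that fell was near background and the share that rose below it. The mRNAs encoded in the mitochondrial genome gave 8 lower and 2 higher of 13 (median -0.62). The mitochondrial mRNAs, which are made as long joint transcripts, differed among themselves: MT-CO2 fell by 1.25 ± 0.0558, while MT-ND1 and MT-ND4 rose by 0.34 ± 0.101 and 0.32 ± 0.0553. In polyamine and nucleotide synthesis 14 of 26 fell and 3 rose. SAT1, which acetylates polyamines for export, went from an implied 46.3 to 619.5 (3.63 ± 0.166), and AMD1, needed to build them, fell by 1.41 ± 0.0709.

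Of 28 cholesterol genes in the authors' deposited table, 12 were down (42.9%, beside a background of 35.7%), 4 up and 12 not called. STARD4, a sterol carrier, was at 1.53 ± 0.0803. SREBF2, the master factor of this pathway, rose by 1.02 ± 0.0831. Of 18 fatty acid genes 8 fell and 4 rose (44.4% and 22.2%, beside background shares of 35.7% and 34.0%). SCD (-1.04 ± 0.0643) and FADS2 (-1.11) fell and FADS3 rose (2.16 ± 0.177).

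Genes of the line's neuronal identity changed in both directions. Of 26 adrenergic transcription factors tested, 11 fell and 5 rose, with a median of -0.23. These were 42.3% and 19.2%, beside background shares of 35.7% and 34.0%, so the share that fell was not far above background. Of the core factors, GATA3 was at 0.23 ± 0.0604 and HAND2, which was not called, at -0.09 ± 0.0615, while ISL1 fell by 0.59 ± 0.0904. DACH1 (-2.69), HAND1 (-1.25 ± 0.131) and MEIS2 (-1.03 ± 0.0707) fell more, and PHOX2A (0.45) and GATA2 (0.46) rose. Genes of the mesenchymal state, the other known state of neuroblastoma cells, were 10 higher and 7 lower of 27 in the authors' deposited table, or 37% and 25.9% beside 22.6% and 21.6% of all tested genes; 5 of the 10 had a mean under 100. FOSL1 (2.55) and CD44 (1.45) rose, and SNAI2 (-1.45) and PRRX1 (-0.69) fell.

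Genes of catecholamine handling and secretory granules were divided, 9 higher, 5 lower and 6 not called of 20 tested, with a median of 0.01. The shares were 45% and 25%, beside background shares of 34.0% and 35.7% and 22.6% and 21.6% of all tested genes. VGF, a precursor of neuropeptides, went from an implied 23.4 to 579 (4.03 ± 0.33), secretogranin SCG2 rose by 2.56 ± 0.13, GCH1, which makes the cofactor of catecholamine synthesis, by 2.52 ± 0.138 and the peptide-processing enzyme CPE by 1.58 ± 0.067. Against these, chromogranin CHGA fell by 1.14 ± 0.105 and the noradrenaline carrier SLC6A2 by 1.08. DBH was at -0.42 ± 0.178 with an adjusted p of 0.044 from the authors' DESeq2 test, a call that is lost at 0.01. Synaptic genes were higher in 18 of 40 cases and lower in 10 (45% and 25%, beside background shares of 34.0% and 35.7%). The vesicle sensor SYT4 (2.67 ± 0.134) and the scaffold DLG4 (1.58 ± 0.102) led them, with the glutamate receptor GRIA2 at -1.04. Among cytoskeletal genes MAPT (tau) rose by 2.03 ± 0.137 and DPYSL4 fell by 1.61 ± 0.113.

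Receptors and ligands of neuronal survival changed in both directions. In the authors' deposited table the low-affinity neurotrophin receptor NGFR went from an implied 27.3 to 612 (4.29 ± 0.199), and the ligands GDNF (2.52 ± 0.175) and BDNF (1.36 ± 0.11) rose. RET, the signalling receptor of GDNF, rose by 1.13 ± 0.202, while its co-receptor GFRA1 fell by 1.06 ± 0.0718 and the oncogene ALK by 0.82 ± 0.1. Surface molecules under study as therapy targets split 7 to 7 of 15, 46.7% each beside background shares of 34.0% and 35.7%. The glypican GPC2 rose (1.40 ± 0.0853), and CD24 (-1.06 ± 0.0565) and ST8SIA1, the enzyme that makes the ganglioside before GD2 (-0.86 ± 0.151), fell.

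Retinoid genes were a small and mostly rising group, 10 of 13 higher (4 of these with a mean under 100) and 2 lower with a median of 1.64. Their shares were 76.9% and 15.4%, beside 22.6% and 21.6% of all tested genes. As background, retinoic acid makes neuroblastoma cells differentiate. CRABP2, which carries retinoic acid to its receptors, went from an implied 61.8 to 931 (3.78 ± 0.178). The synthesis enzyme ALDH1A3 rose by 1.96 and the receptors RARG and RARB by 1.89 ± 0.202 and 1.72 ± 0.211. RXRA (-0.59 ± 0.1) and RDH10 (-0.35) fell. In the Notch pathway 10 of 19 rose and 3 fell in the authors' deposited table, and 7 of the 10 had a mean under 100. The shares were 52.6% and 15.8%, beside 22.6% and 21.6% of all tested genes. The ligand JAG1 rose by 2.18 ± 0.182 and the modifier LFNG fell by 1.51 ± 0.189.

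Matrix and adhesion genes rose in 17 of 32 cases and fell in 6, with a median of 0.67. The shares were 53.1% and 18.8%, beside background shares of 34.0% and 35.7% and 22.6% and 21.6% of all tested genes. Of the 17 that rose, 4 had a mean under 100. COL1A1 went from an implied 175 to 2033 (3.22 ± 0.279), COL6A2 and COL6A1 rose by 2.27 and 1.87, and the laminin receptor chain ITGA6 by 2.38 ± 0.114. Basement membrane collagens COL4A1 and COL4A2 fell to -0.55 and -0.78. Beside this list, fibroblast markers did not rise together in the authors' deposited table: COL1A1 and ACTA2 (1.95 ± 0.213) rose, PDGFRA (-0.61 ± 0.0753), PDGFRB (-0.36) and LUM (-0.74) fell, and DCN had a mean of 2.02. Interferon-stimulated genes were higher in 12 of 25 cases and lower in 3, or 48% and 12% beside 22.6% and 21.6% of all tested genes. Of the 12 that rose, 10 had a mean under 100, such as IFITM1 at 13.8 (2.50 ± 0.45), and USP18, a brake on interferon signalling at a mean of 521, fell by 1.91 ± 0.108.

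The response was spread over the genome. Among protein-coding genes whose mean reached 100, the share called ran from 65.3% to 74.5% over the autosomes and X. Gene length and abundance moved with direction. Genes were put in 5 equal classes by span: in the class with the shortest (0.207 to 12.7 kb) 29.2% rose and 40.9% fell, and in that with the longest (110.3 to 2474 kb) 41.4% rose and 29.3% fell. In 5 such classes by mean count, 37.7% rose and 25.2% fell in the lowest and 30.8% and 47.3% in the highest. The part of gene length or abundance in the list counts was not tested. Long intergenic RNAs whose mean reached 100 numbered 125, and 24% of them rose and 42.4% fell in the authors' deposited table.

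IMR5 was then set against LAN5 and SK-N-FI by testing, gene by gene, the difference between the effects of GSK-J4. The authors' shrinkage was removed from the fold changes of each deposited table, and a two-sided Wald test with Benjamini-Hochberg adjustment was run over genes whose mean reached 100 in both tables. The lines share no libraries. The third table names its line in a spelling close to SK-N-FI but not the same as the labels', and all values given for that line depend on this match. Each line's table was normalized separately. Against LAN5, 6041 of 9895 genes differed (61.1%), of which 3402 were higher in IMR5 (34.4%) and 2639 lower (26.7%). Against SK-N-FI, 4693 of 9566 differed (49.1%), 2151 higher (22.5%) and 2542 lower (26.6%). Genes called in opposite directions numbered 1145 against LAN5 and 641 against SK-N-FI. Which direction held the majority depended on scaling: with each line centred on its median gene, 2958 were higher and 3005 lower than in LAN5, and 2346 higher and 2269 lower than in SK-N-FI.

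For most proteasome and heat shock genes the effect was lower in IMR5 than in either line by the test of differences. Against LAN5, 27 of 30 proteasome genes were lower in IMR5 and 0 higher, with median prior-removed changes of -0.60 in IMR5 and 0.26 in LAN5, where 19 of the 30 were called higher and 1 lower. Against SK-N-FI, 22 of 31 were lower in IMR5 and 0 higher, with medians of -0.61 and -0.12, and in SK-N-FI 8 of the 31 were called lower and 0 higher. Heat shock genes were lower in IMR5 in 17 of 21 cases against LAN5 and 15 of 20 against SK-N-FI, and higher in 2 and 3. In SK-N-FI 7 of the 20 were themselves called lower and 3 higher. NRF2 targets followed, lower in 14 of 20 and 13 of 20 and higher in 0 and 3, with an IMR5 median of -0.16 beside 1.05 in LAN5 and 0.54 in SK-N-FI.

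Other lists differed from the 2 lines in unlike ways. Ribosomal protein genes were higher in IMR5 than in LAN5 in 41 of 47 large-subunit and 22 of 31 small-subunit cases. Against SK-N-FI 16 of 47 and 12 of 31 were lower in IMR5 and no member higher, while 31 and 19 did not pass the threshold. Of all genes compared, 34.4% were higher and 26.7% lower in IMR5 than in LAN5, and 22.5% higher and 26.6% lower than in SK-N-FI. Adrenergic factors kept more of their level in IMR5 than in LAN5, higher in 16 of 19 cases with medians of -0.09 and -1.36; against SK-N-FI 7 of 21 were higher and 6 lower. Mitotic genes fell less than in LAN5, with 30 of 46 differences higher in IMR5 and 3 lower, and medians of -0.59 and -1.03. Medians here are of prior-removed changes computed from the authors' deposited tables.

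Further lists also differed from SK-N-FI. p53 targets were higher in IMR5 in 15 of 24 cases and lower in 0, with medians of 1.17 and 0.09, and against LAN5 they were higher in 8 and lower in 14 of 27. ERK feedback genes were higher in IMR5 in 12 of 14 against SK-N-FI and 10 of 15 against LAN5. Glycolysis genes were lower in 17 of 24 (medians -0.48 and 0.67), and ribosome biogenesis genes in 29 of 43 (-0.47 and 0.07). All 13 mitochondrial mRNAs were higher in IMR5 than in SK-N-FI, with medians of -0.62 and -2.01.

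**Figure D5:**
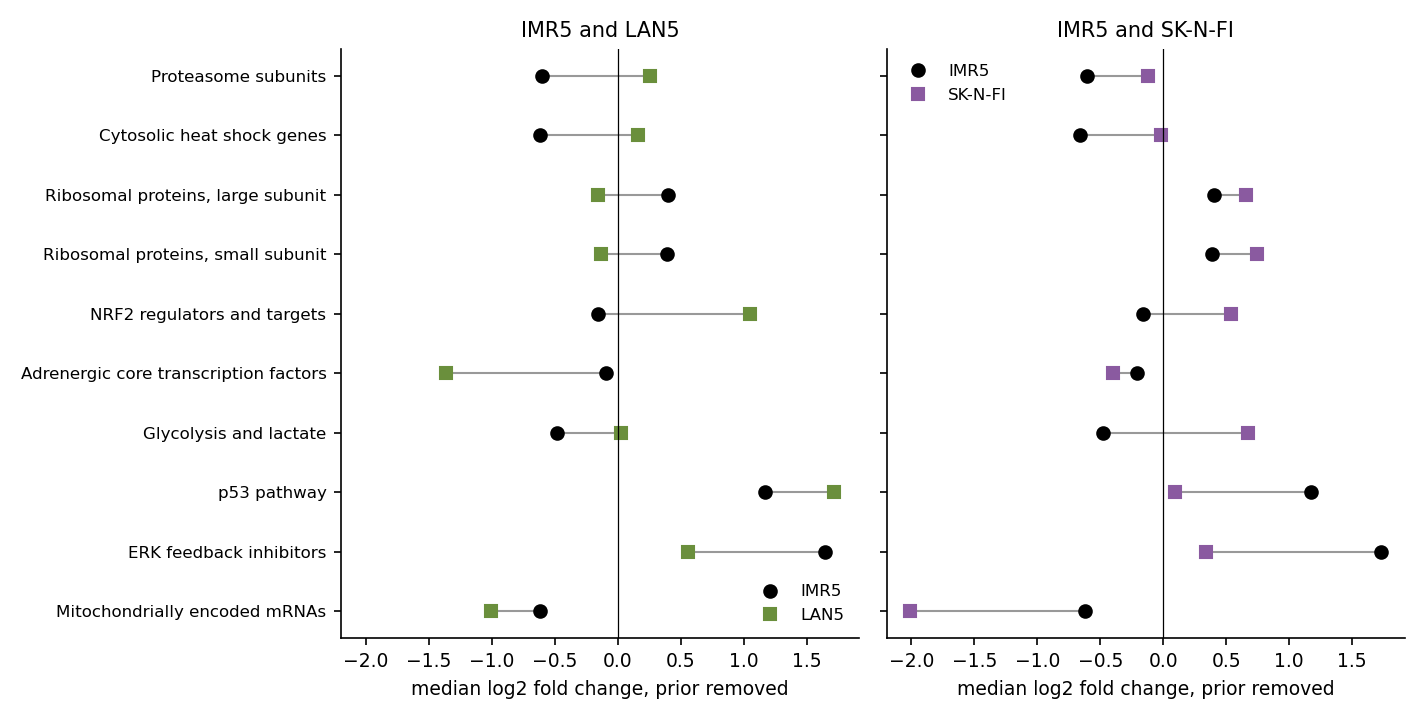
Dots give the median prior-removed log2 fold change of each list in IMR5 (black circles) and in LAN5 (left) or SK-N-FI (right), over genes whose mean reached 100 in both tables. Proteasome subunits lie at -0.60 in IMR5 against 0.26 in LAN5, and mitochondrially encoded mRNAs at -0.62 against -2.01 in SK-N-FI.

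Among single genes the differences were larger. CREB5 rose by 6.15 ± 0.367 (prior removed) in IMR5 against 0.41 ± 0.101 in LAN5 and 1.03 ± 0.142 in SK-N-FI, and SAMD4A by 5.26 ± 0.3 against 1.57 ± 0.151 and 0.60 ± 0.159. ATF5 was at 4.62 ± 0.25 against 0.98 ± 0.151 and 0.72 ± 0.182, although ATF4 mRNA rose less in IMR5 (0.71 ± 0.104) than in SK-N-FI (1.48 ± 0.139, adjusted p of the difference 5.36e-05 by the Wald test over all genes compared). NGFR rose in IMR5 (4.49 ± 0.208) and LAN5 (1.47 ± 0.165) and was at -0.88 ± 0.126 in SK-N-FI. In the other direction, STC1 was at -2.17 ± 0.151 in IMR5 and 2.82 ± 0.134 in SK-N-FI, PFKFB3, a regulator of glycolysis, at -1.03 ± 0.0979 and 5.15 ± 0.251, and the microtubule gene MAP1A at -1.10 ± 0.0734 in IMR5 and 3.10 ± 0.0704 in LAN5. MYCN fell less than in LAN5 (difference 0.83 ± 0.0862) and more than in SK-N-FI (-0.75 ± 0.227). For KDM6A the difference was -0.09 ± 0.141 from LAN5 and 0.02 ± 0.174 from SK-N-FI, adjusted p 0.598 and 0.943 in the same Wald test over all genes compared.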

How the data were processed

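Polyadenylated RNA from 24 libraries of 4 neuroblastoma lines was sequenced, and the 6 IMR5 libraries (3 untreated, 3 with GSK-J4) are described here. Per the submitters' processing notes, FastQC, STAR and DESeq2 were used with the build hg38; their versions, the annotation release, the counting tool and whether counting used strand were not given in the sources used here. There is 1 comparison table per line. Per the file headers, its signal column, as deposited, is a mean of DESeq2-normalized counts over the 6 libraries. The authors' log2 fold changes and standard errors were used as deposited. The Wald score was likewise used as the authors deposited it. Each p-value, raw or adjusted, is that of the authors' DESeq2 test as deposited. P-values recomputed from the statistic differed by at most 6e-13 on the log10 scale. As the planned count model needs values per library, which were not used here, the authors' DESeq2 Wald test with Benjamini-Hochberg adjustment was taken as it stands. Depth per library is unknown, so no interval that needs it is given. The precision is that of the deposited standard errors, with a median of 0.0969 after removal of the prior, taken over genes whose mean reached 100.

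The sign was read as GSK-J4 over untreated from BBC3, so the direction of BBC3 is not a finding. The SK-N-FI table was matched to its line by likeness of name and by elimination. The SK-N-BE(2) table was not used here.

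The deposited errors do not exceed 0.49 in IMR5, a ceiling that a zero-centred normal prior produces. That prior was given a standard deviation of 2 times the largest error and was divided out of each gene's value and error. The 2 solutions were told apart by the mean count (4.01) at which the error, smoothed over 501 genes, is largest. Prior-removed values gave the implied levels before and after treatment and the differences between lines. Those differences were tested with a two-sided Wald test and Benjamini-Hochberg adjustment over all genes compared. This test was tested on data simulated with the same prior and errors that it assumes, so that run could not check either. Symbols came from the name table, with 29785 of 30271 genes matched, and positions of 30040 genes from GENCODE release 29. Promoters came from RefSeq on GRCh38.p14. Python 3.11.15, numpy 2.4.6, pandas 2.3.3, scipy 1.17.1 and matplotlib 3.10.9 were used.

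The named genes were the 15 protein-coding genes with the largest deposited rise and the 15 with the largest fall at a mean of at least 100. In each list, up to 4 called members with the largest change at that mean and members called against most of the list were named, and for differences between lines the 10 largest in each direction. Some genes that this rule names are not reported here. Some further members with roles of interest were chosen after their values were seen. The comparison, the lists and the motifs were chosen with earlier results of these data known, and lists share some genes. Alternatives tried were a threshold of 0.01, a fold minimum, other sets of genes for the adjustment, centring, removal of the prior, a lower minimum mean and another promoter window.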

Additional observations from a re-analysis of the deposited data

Results flagged for a closer look

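The effect of GSK-J4 differed between IMR5 and another line for many genes, by a two-sided Wald test of the difference between the prior-removed log2 effects with Benjamini-Hochberg adjustment over all genes compared. Against LAN5 the number was 6041, and against SK-N-FI it was 4693. All values below are the log2 effect in IMR5 minus that in the other line and passed an adjusted p of 0.05.

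The largest positive differences from LAN5 were CREB5 at 5.73, DUSP8 at 3.93, SAMD4A at 3.69, ATF5 at 3.65, CRABP2 at 3.37, GAS2L3 at 3.28, PPP1R16B at 3.13, METTL7A at 3.09, NGFR at 3.02 and DMD at 2.92. GAS2L3 stands out among them because its effect in IMR5 was 0.15 ± 0.105 and the difference comes from a fall of 3.12 ± 0.144 in LAN5. The largest negative differences from LAN5 were HMOX1 at -10.43, BHLHE40 at -5.11, CSRNP1 at -4.82, NQO1 at -4.45, ITGA2 at -4.24, ASS1 at -4.20, MAP1A at -4.20, FAT1 at -4.14, TUBB6 at -4.10 and GCLM at -4.0. HMOX1, NQO1 and GCLM are NRF2 targets, and in IMR5 they stood at -0.97 ± 0.207, 0.05 ± 0.0928 and -0.86 ± 0.0757.

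From SK-N-FI the largest positive differences were GDF15 at 6.19, NGFR at 5.37, CREB5 at 5.12, METTL7A at 4.68, SAMD4A at 4.66, EGR1 at 4.65, BDKRB2 at 4.53, ATF5 at 3.90, H1-2 at 3.87 and VGF at 3.82. CREB5, METTL7A, SAMD4A, ATF5 and NGFR were thus among the 10 largest against both lines. The largest negative differences were PFKFB3 at -6.18, PLOD2 at -5.05, STC1 at -4.99, IGFBP5 at -3.91, CA12 at -3.49, HMOX1 at -3.34, ZBTB2 at -3.27, CFAP44 at -3.10, BNIP3 at -3.08 and PPFIA4 at -3.01. IGFBP5, the gene with the largest fall in IMR5, was at 0.03 ± 0.158 in SK-N-FI.

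Of the genes named in any case, the differences from LAN5 were 0.63 for KDM6B, 0.48 for EZH2, 0.83 for MYCN, 0.83 for DDIT3 and -1.29 for CDKN1A. The DDIT3 difference from LAN5 was not called with deposited values or at an adjusted p of 0.01. From SK-N-FI they were 0.43 for EZH2, -0.75 for MYCN, 1.43 for BBC3, -0.77 for ATF4, 1.35 for DDIT3 and 2.06 for CDKN1A. CDKN1A thus rose less in IMR5 than in LAN5 and more than in SK-N-FI, where it was at 0.12 ± 0.109.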

How the results depend on the processing

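No paired analysis was possible because the tables hold comparisons and no values per library were used; for the same reason no replicate was left out, and no other count model or normalization was run. A fold minimum moved the counts most: with a log2 change of at least 1, 3110 genes were called, 1866 higher and 1244 lower, and 374 list members, 237 higher and 137 lower. The other alternatives kept each main count within 1.5 times its value, with 7844 to 9969 genes called. Counts for single lists were less stable. Over all alternatives 154 of them left that range and 806 did not, and 128 of the 154 did so under the fold minimum. Of the differences between lines counted per list, 122 left it and 1158 did not. Removing the prior leaves the IMR5 calls as they are by construction. Differences from LAN5 numbered 5038 to 7383 and from SK-N-FI 3570 to 5813. With 250 bases before the start only, E2F matches were in 5.79% of promoters of genes that fell, against 6.92% in the main window. The Wilson interval in the main window was 6.11 to 7.83. Of the motif shares tried separately, 4 were rated as moved under the shorter window and 5 as the same. With genes whose mean reached 100 only, 1 was rated as moved and 8 as the same. Motif shares thus depended in part on the promoter window. Among the 551 single genes and the named differences checked, no called value turned its sign under the alternatives run. Signs of the other called genes were not checked. Majorities did turn: adjusting over genes whose mean reached 100 gave 3816 higher and 4028 lower. Centring gave 2958 higher and 3005 lower than LAN5 and 2346 and 2269 against SK-N-FI. Of 551 single genes, 308 lost their call under the fold minimum, 45 at an adjusted p of 0.01, 11 when every gene with a p-value was adjusted and 7 after centring by -0.0137. The DDIT3 difference from LAN5 lost its call with deposited values (0.58) and at 0.01, the BBC3 difference from LAN5 passed with deposited values (0.69), and the ATF4 difference from LAN5 passed after centring; the cause was not tested. Depth per library is unknown, and genes below a mean of 1.37 were not tested.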
